A study of Homo sapiens with 24 samples.

Results

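The genes described here encode the proteins of the cytosolic ribosome. They were chosen by symbol from a table of read counts per gene: RPL or RPS followed by digits and at most one trailing A or X, together with RPLP0, RPLP1, RPLP2 and RPSA, with S6 kinase genes and pseudogenes left out and a mean of at least 10 counts per library required. Of 23368 genes in the table, 77 matched by symbol and 76 were kept, of which 30 encode small subunit proteins and 46 large subunit proteins. All 76 passed the filter on low counts that left 13947 genes to test.

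The libraries were made from AGS, an established human gastric adenocarcinoma cell line grown in Ham's F12 medium with serum, 24 h after treatment. There were 6 groups of 4 replicates: control, in which no inhibitor was given (whether vehicle was added is not stated); PI103, an inhibitor of PI3 kinase and of the kinase mTOR, at 0.7 µM; PD0325901, an inhibitor of the kinase MEK, at 0.035 µM; oxozeaenol, in full (5Z)-7-oxozeaenol, an inhibitor of the kinase TAK1, at 0.5 µM; PI103 combined with oxozeaenol; and PI103 combined with PD0325901. In both combinations each inhibitor was used at 50% of its single-agent concentration. All groups share the one cell line, the medium and the 24 h end point, and the replicate number is labelled as the batch. Nothing in the labels says that the replicates of a group came from separately thawed or passaged cultures, so p-values measure the spread between these libraries.

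A ribosome joins a small subunit, which reads the mRNA, to a large subunit, which forms the peptide bonds, and nearly every ribosomal protein is present once per ribosome. The mRNAs for these proteins start with a C followed by a run of pyrimidines, the terminal oligopyrimidine (TOP) tract, and mTOR complex 1 controls their translation through this tract, with LARP1 and the 4E-BP proteins as known mediators. Such control acts on the loading of the mRNA onto ribosomes and need not change the amount of mRNA, which is what was counted here, so the comparisons ask whether the amounts of these mRNAs differed between the 6 groups.

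The start of the transcript is shown for members on which the results turn, because the TOP tract is the sequence that defines this class of mRNA. Each line gives 10 bases before and 20 bases from an annotated start site in RefSeq (assembly GRCh38.p14), 5′ to 3′ on the strand of the gene, with the tract that begins with C at the start site in capitals. RPS25, RPS27 and RPL22 were the members called higher in most treatments, RPSA, RPL21, RPS23, RPL13A and RPLP0 were among those called lower, and RPS6, which encodes the substrate of the S6 kinases, was called in none.

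RPS25 (chr11:119018324-119018353, minus strand): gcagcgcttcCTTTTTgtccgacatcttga
RPS27 (chr1:153990752-153990781, plus strand): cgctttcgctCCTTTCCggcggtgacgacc
RPL22 (chr1:6199576-6199605, minus strand): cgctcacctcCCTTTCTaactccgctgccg
RPSA (chr3:39406710-39406739, plus strand): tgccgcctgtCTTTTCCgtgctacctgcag
RPL21 (chr13:27251548-27251577, plus strand): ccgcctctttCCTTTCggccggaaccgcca
RPS23 (chr5:82278335-82278364, minus strand): cggtgcttctCTCTTTCgctcaggcccgtg
RPL13A (chr19:49487598-49487627, plus strand): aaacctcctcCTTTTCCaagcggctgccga
RPLP0 (chr12:120201092-120201121, minus strand): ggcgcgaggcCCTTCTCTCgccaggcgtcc
RPS6 (chr9:19380217-19380246, minus strand): gaagttggccCTCTTTTCCgtggcgcctcg
RPL22L1 (chr3:170870176-170870205, minus strand): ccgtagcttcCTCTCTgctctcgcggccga
RPS4X (chrX:72277229-72277258, minus strand): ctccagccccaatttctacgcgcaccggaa

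RPL22L1, the paralog of RPL22, lies outside the rule for the members. It is shown because it was called lower with PI103 and in both combinations, where RPL22 was called higher. In RPS4X, an X-linked small subunit gene, the window holds no such tract at the annotated start. Of the members, 62 were matched in the RefSeq table of start sites. A C at an annotated start followed by at least 4 further bases that are C or T, read on the strand of the gene, was found in 46 of the 62, or 74.2%, against 5.14% of 27305 genes in that table. With the C allowed up to 5 bases either side of the start, the shares were 53 of 62 (85.5%) and 25.2%. The mitochondrial ribosomal proteins, which carry no such tract as a class, had it at the start in 8.70% of 69 genes matched. These are matches of letters and not measured start sites.

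Gene counts per library ran from 38.1 M to 84.2 M with a median of 58.9 M, and the 76 members together held 7.15% to 11.7% of them. The epithelial markers KRT8, KRT18, KRT19 and EPCAM were at 412 CPM or more in all 24 libraries (CPM, counts per M of library size after TMM scaling), and PTPRC, CD3E, COL1A2, PECAM1 and HBB, which mark leukocytes, fibroblasts, endothelium and erythroid cells, did not exceed 0.182 CPM in any. COL1A1, also a fibroblast marker, was at 7.93 to 34.2 CPM. Libraries of 1 group differed from each other by at least 8.99 chi-square units per gene, far above sampling noise, so none was taken as a repeat of another.

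As a share of gene counts, the members held 8.75%, 10.2%, 7.88% and 10.5% in control replicates 1 to 4, 8.53%, 8.57%, 8.22% and 10.2% with PI103 and 8.63%, 7.15%, 9.42% and 10.3% with PD0325901. With oxozeaenol the shares were 8.39%, 9.88%, 11.3% and 11.7%. With PI103 plus oxozeaenol they were 9.35%, 8.90%, 9.50% and 11.1%, and with PI103 plus PD0325901 7.59%, 8.31%, 9.04% and 9.72%. The groups overlapped: the means were 9.33% ± 1.24 (SD, n = 4) in control, 8.87% ± 0.885 (SD, n = 4), 8.87% ± 1.32 (SD, n = 4) and 10.3% ± 1.49 (SD, n = 4) with PI103, PD0325901 and oxozeaenol, and 9.70% ± 0.940 (SD, n = 4) and 8.67% ± 0.919 (SD, n = 4) in the combinations with oxozeaenol and with PD0325901. The library of batch 4 had the highest share in 6 of 6 groups, and batch means were 8.54%, 8.83%, 9.22% and 10.6% for batches 1 to 4 (n = 6 libraries each). The spread between batches was thus as wide as that between groups. In bulk RNA, fewer cells of a type and less RNA per cell cannot be told apart, and a share of counts is relative to all other mRNA.

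**Figure D1:**
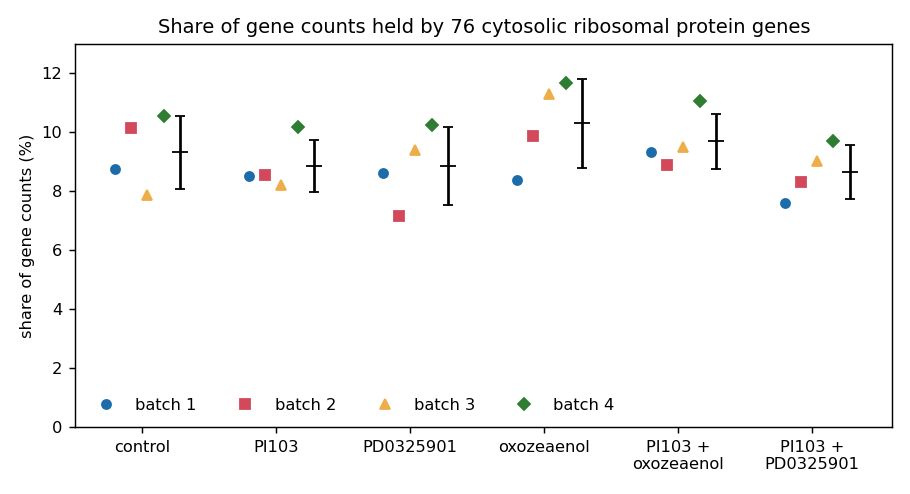
Share of gene counts (%, y axis) held by the 76 cytosolic ribosomal protein genes in each of 24 libraries, by group (x axis). Symbols mark the 4 batches, and black bars give the mean ± SD of 4 libraries. Shares run from 7.15% to 11.7%, the groups overlap, and batch 4 is the highest library of every group.

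Per length of transcript (CPM per kilobase, with lengths from GENCODE release 29), members differed widely in level. In control, RPS18 was highest at 3920 ± 763, followed by RPS16 at 3820 ± 757 and RPL41, which encodes the shortest ribosomal protein, at 3630 ± 496 (SD, n = 4). These neighbours do not differ beyond their spread. Lengths are of 1 annotated transcript per gene, and for some members it is long: 7686 bases for RPL37 and 2359 for RPS19, beside a median of 818. RPL37, at 725 CPM in control, thus ranked 75 per length, and RPS19, at 3104 CPM, ranked 44. Whether these transcripts are the ones expressed was not tested, and levels per length depend on them. RPL21 was lowest at 4.31 ± 1.22, with 91 to 362 counts per library. Ribosomal protein genes have many processed pseudogenes, and reads without a unique alignment were tallied apart from the genes, at 4.64% to 6.06% of all tallied reads. That tally holds such reads from any source, and the part that fits a member and its copy is not known. GENCODE names at least 1 pseudogene for 75 of the 76, with 66 for RPL21, 74 for RPSA and 1 for RPS25. Across the 76 members, level per length and number of named pseudogenes had a Spearman correlation of -0.0028, and log10 level a Pearson correlation of -0.21, given as a description. How many reads of each member were lost to its copies was not tested, and levels are uncertain to that extent. RPS10 and RPL17 share 39.4% and 32.7% of their exon length with read-through genes on the same strand, and RPL10 shares 52.7% of its own with DNASE1L1 on the other strand. No source used here says if strand was used in counting.

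The main question was whether the treatments moved these mRNAs against control. Most members were not called in any treatment in the model without the batch: of 76, 45 were called in none, 31 in at least 1 (40.8%, against 85.3% of all genes tested) and 17 in 2 or more (22.4%, against 72.2%), and no member was called higher in 1 treatment and lower in another (5.36% of all genes). With the batch in the model more members were called in every treatment, as given below, so these shares depend on that choice. Changes were small. The combination of PI103 plus PD0325901 moved the most members, and also the most genes of the whole table (35.5% of members, 64.8% of all genes). There 24 of 76 members were lower and 3 higher, beside 32.6% and 32.2% of all genes. Members called lower were thus near the share over all genes, and members called higher were below it. The small subunit genes RPS25 and RPS27 and the large subunit gene RPL22 stood out from the family by being higher. A gene is called at an adjusted p under 0.05 in edgeR's quasi-likelihood test, adjusted by Benjamini-Hochberg over the 13947 genes tested. Every adjusted p of a gene is from this test unless another scaling or model is named.

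With PI103, 4 members were higher and 5 lower, against 26.2% of all genes tested called higher and 25.2% lower (51.4% in either direction), and the members' median log2 change was -0.16. With PD0325901, 0 were higher and 11 lower (28.7% of all genes higher, 29.9% lower, 58.6% in all), with a median of -0.14 that was -0.01 without PD0325901 replicate 2. With oxozeaenol, 6 were higher and 4 lower (25.7% of all genes higher, 26.1% lower, 51.9% in all), with a median of 0.15 that turned to -0.10 when libraries were scaled by other short transcripts. The combination of PI103 plus oxozeaenol had 4 higher and 3 lower (27.7% of all genes higher, 27.9% lower, 55.6% in all) and a median of 0.00 after rounding. In the combination of PI103 plus PD0325901, 3 were higher and 24 lower (32.2% of all genes higher, 32.6% lower, 64.8% in all), and the median was -0.23. As shares of the 76 these were 11.8%, 14.5%, 13.2%, 9.21% and 35.5% in the order given, each below the share over all genes. A test of any difference across the 6 groups called 28 of 76 members, or 36.8%, and 82.7% of all genes tested. It called 49 members without oxozeaenol replicate 1, and more than 28 also with the batch in the model, as given below.

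The median absolute log2 change of the members was 0.18, 0.16 and 0.18 with PI103, PD0325901 and oxozeaenol, against 0.35, 0.40 and 0.34 over all genes tested. In the combinations with oxozeaenol and with PD0325901 it was 0.10 and 0.25, against 0.37 and 0.47. The standard error was not smaller for the members, at a median of 0.138 against 0.120 over all genes with PI103. Levels whose 4 libraries did not overlap those of control were found for 10 members with PI103 (48.9% of all genes), 2 with PD0325901 (49%), 6 with oxozeaenol (42.2%), 10 with PI103 plus oxozeaenol (52.6%) and 17 with PI103 plus PD0325901 (56.9%).

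**Figure D2:**
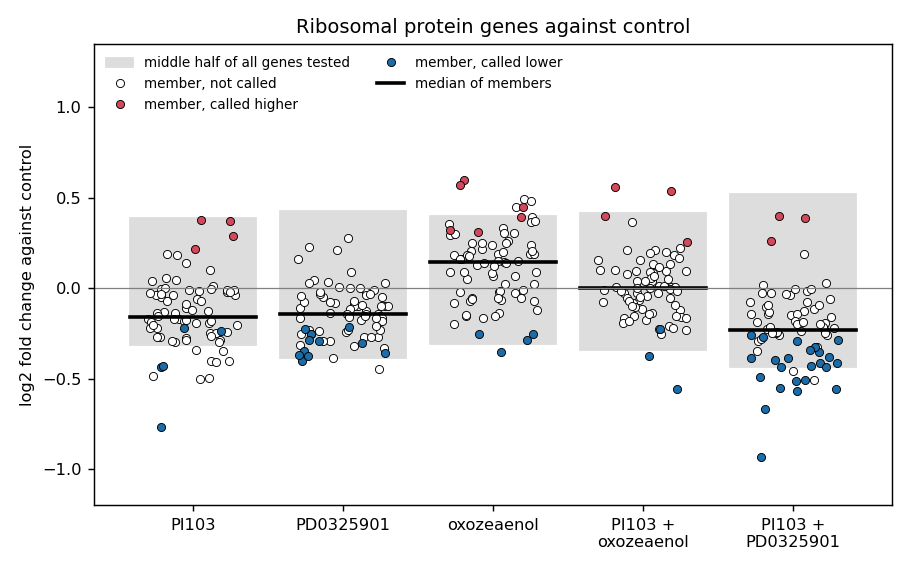
Log2 fold change against control (y axis) of each of 76 ribosomal protein genes in the 5 treatments (x axis). Red and blue points are genes called higher and lower at an adjusted p under 0.05, open points were not called, black lines are the members' medians and grey boxes span the quartiles of all 13947 genes tested. The oxozeaenol median of 0.15 becomes -0.10 when libraries are scaled by other short transcripts.

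Counts depended on the batch and on single libraries. With the batch number in the model, 21 members were called with PI103 (4 higher, 17 lower) and 23 with PD0325901 (3 higher, 20 lower), against 56.3% and 62.7% of all genes. With oxozeaenol it was 19 (15 higher, 4 lower) and 56.2%, with PI103 plus oxozeaenol 10 and 60%, and with PI103 plus PD0325901 39 and 68.9%. The test of any difference called 62 members in that model, against 86.9% of all genes. Without the batch in the model, PI103 had 24 members called without control replicate 3, 4 without control replicate 2 and 5 without control replicate 4. With PD0325901 the count was 2 without control replicate 4, 5 without control replicate 2, 4 without PD0325901 replicate 2 and 6 without PD0325901 replicate 1. With oxozeaenol it was 22 without oxozeaenol replicate 1 and 6 without oxozeaenol replicate 4. The shares of all genes called in these fits are not given, so such moves are not shown to be particular to the members. Within batches, the members' mean log2 level with oxozeaenol was -0.11, -0.07, 0.60 and 0.05 relative to the control library of batches 1 to 4. It was higher in 2 of 4 batches, and the median of 0.15 was 0.06 without control replicate 3. With PI103 plus PD0325901 the 4 values were -0.35, -0.43, 0.12 and -0.25, lower in batches 1, 2 and 4. With PI103 they were -0.10, -0.31, 0.01 and -0.14, with PD0325901 -0.13, -0.61, 0.25 and -0.10, and with PI103 plus oxozeaenol 0.05, -0.24, 0.25 and -0.02. The library of batch 3 in control was the lowest control library, which bears on every value of that batch.

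Among small subunit proteins, RPS25 was higher after treatment. It lies near the head of the subunit and is known for its part in initiation on some viral and cellular mRNAs. Its 4 control libraries held 645, 685, 626 and 719 CPM. With PI103 it was at 843, 802, 826 and 1009 CPM, and with oxozeaenol at 743, 856, 1134 and 1235 CPM. All of these treated libraries lay above the highest control library. With PI103 plus oxozeaenol it was at 904, 884, 950.5 and 1209.7 CPM, and with PI103 plus PD0325901 at 722, 822, 909 and 1045 CPM. These again did not overlap control. With PD0325901 alone, at 703, 683, 918 and 939 CPM, replicates 1 and 2 lay within the control range. RPS25 rose by 0.38 (adjusted p 0.0314, SE 0.146) with PI103 on the log2 scale, by 0.57 (adjusted p 0.00206, SE 0.146) with oxozeaenol, by 0.56 (adjusted p 0.002, SE 0.146) with PI103 plus oxozeaenol and by 0.39 (adjusted p 0.0226, SE 0.146) with PI103 plus PD0325901. With PD0325901 the difference was 0.28 (adjusted p 0.105, SE 0.146) and was not called, though it passed with the batch in the model (adjusted p 0.018). The call with PI103 was lost in 4 of 8 fits that left out 1 library, and that with PI103 plus PD0325901 in 2. Opposite its gene lies TRAPPC4, which overlaps 20.8% of its exon length.

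RPS27, a zinc-binding small subunit protein, followed the same groups. It was at 957, 1036, 929.7 and 1058 CPM in control, 1174, 1272, 1304 and 1395 CPM with PI103 and 1073, 1266, 1545 and 1354 CPM with oxozeaenol. With PI103 plus oxozeaenol it was at 1399, 1381, 1404 and 1593 CPM and with PI103 plus PD0325901 at 1181, 1302, 1343 and 1427 CPM. The lowest of these treated libraries, oxozeaenol replicate 1, lay just above the highest control library. With PD0325901 it was at 1064, 1052, 1299 and 1240.0 CPM, which overlapped control in replicate 2. RPS27 rose by 0.37 (adjusted p 0.00352, SE 0.102) with PI103, 0.40 (adjusted p 0.00205, SE 0.102) with oxozeaenol, 0.54 (adjusted p 7.53e-05, SE 0.102) with PI103 plus oxozeaenol and 0.40 (adjusted p 0.00125, SE 0.102) with PI103 plus PD0325901. The value with PD0325901 was 0.23 (adjusted p 0.0585, SE 0.102), with an adjusted p of 0.0181 with the batch in the model. Its 4 calls held in all leave-one-out fits.

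RPSA, the laminin receptor precursor that sits on the back of the small subunit, was the small subunit gene with the largest fall. It was at 1854, 1893, 1647 and 2112 CPM in control and at 1096, 1166, 1272 and 1199 CPM with PI103 plus PD0325901, without overlap. With PI103 it was at 1387, 1505, 1315 and 1368 CPM and with PI103 plus oxozeaenol at 1536, 1412, 1499 and 1343 CPM, also below every control library. With oxozeaenol (1432, 1657, 1748 and 1324 CPM) and PD0325901 (1530.0, 1269, 1896 and 1694 CPM) 2 libraries each reached into the control range. RPSA fell by 0.67 (adjusted p 7.98e-06, SE 0.109) with PI103 plus PD0325901, by 0.43 (adjusted p 0.00184, SE 0.109) with PI103, by 0.37 (adjusted p 0.00506, SE 0.109) with PI103 plus oxozeaenol and by 0.28 (adjusted p 0.031, SE 0.109) with oxozeaenol. With PD0325901 it was at -0.23 (adjusted p 0.0696, SE 0.109). The call with oxozeaenol was lost in 5 of 8 leave-one-out fits, and the other 3 held in all of them.

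RPS2 and RPS23, both close to the path of the mRNA in the small subunit, were lower as well. RPS2 was at 2469.5, 2265, 2057 and 2541 CPM in control, 1925, 1842, 1923 and 1629.9 CPM with oxozeaenol and 1823, 1632, 1787 and 1656 CPM with PI103 plus PD0325901, and neither treated group overlapped control. It fell by 0.35 (adjusted p 0.00199, SE 0.0897) with oxozeaenol, by 0.44 (adjusted p 1.40e-04, SE 0.0897) with PI103 plus PD0325901, by 0.23 (adjusted p 0.0338, SE 0.0896) with PI103 plus oxozeaenol and by 0.23 (adjusted p 0.0328, SE 0.0896) with PD0325901. The last 2 calls were each lost in 5 of 8 leave-one-out fits. On the same strand, AC005363.1 overlaps 25.6% of the exon length of RPS2. RPS23 was at 1230.0, 1269.5, 1102 and 1275 CPM in control, 940.1, 813, 1071 and 983 CPM with PD0325901 and 849, 837, 943 and 978 CPM with PI103 plus PD0325901, where all treated libraries lay below control. It fell by 0.36 (adjusted p 0.00126, SE 0.0893) with PD0325901, by 0.43 (adjusted p 1.37e-04, SE 0.0893) with PI103 plus PD0325901 and by 0.22 (adjusted p 0.0435, SE 0.0892) with PI103. That last call was lost in 7 of 8 leave-one-out fits.

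**Figure D3:**
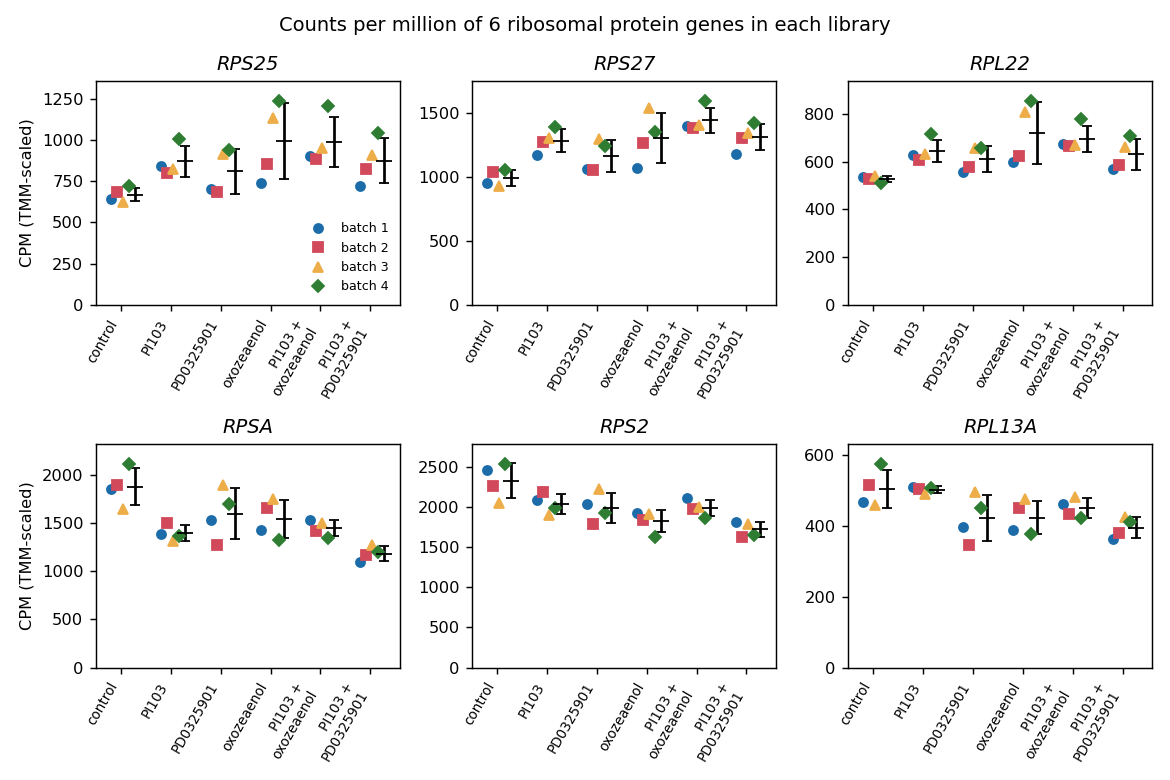
CPM (y axis, from 0, TMM-scaled) in each of 24 libraries for RPS25, RPS27 and RPL22, the members called higher in 4 of 5 treatments, and for RPSA, RPS2 and RPL13A, called lower in some, by group (x axis). Symbols mark the batch and bars give the mean ± SD of 4 libraries. RPS25 rises from 669 CPM in control to 992 CPM with oxozeaenol, and RPSA falls from 1876 CPM to 1183 CPM with PI103 plus PD0325901.

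Other small subunit genes that were looked at whatever their values did not pass the test in any treatment. RPS6, the substrate of the S6 kinases downstream of mTOR, was at 3002 ± 633 CPM (SD, n = 4) in control and 2461 ± 436 CPM with PI103, with a difference of -0.29 (adjusted p 0.22, SE 0.192), and its 5 differences ran from -0.33 to 0.16. Its control libraries alone spanned 2298 to 3568 CPM. RPS14 differed by -0.09 to 0.36, and RPS19, the gene mutated most often in Diamond-Blackfan anaemia, by -0.22 to 0.19. RPS4X differed by -0.14 to 0.09. RPS27A, which encodes a fusion of ubiquitin with a ribosomal protein, was at 1638, 2358, 1566 and 2241 CPM in control and 1175, 1222, 1279 and 1842 CPM with PI103. Its difference of -0.50 (adjusted p 0.0703, SE 0.228) had one of the wider errors among the members. With the batch in the model some of these passed: RPS27A was lower with PI103 (adjusted p 0.00212), PD0325901 (0.0453) and PI103 plus PD0325901 (0.0174), RPS6 was lower with PI103 plus PD0325901 (0.0254), and RPS14 was higher with oxozeaenol (0.0305).

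Among large subunit proteins, RPL22 was the counterpart of RPS25 and RPS27. It is an RNA-binding protein that is not needed for translation in general and whose loss is known to raise its paralog RPL22L1. RPL22 was at 534, 527, 539 and 509 CPM in control, a narrow range. It was at 625, 607, 631 and 713 CPM with PI103, 555, 577, 658 and 656 CPM with PD0325901 and 597, 623, 806 and 852 CPM with oxozeaenol. In the combinations it was at 672, 663, 671 and 777 CPM with oxozeaenol and 569, 586, 661 and 708 CPM with PD0325901. In all 5 treatments every library lay above every control library. RPL22 rose by 0.29 (adjusted p 0.0234, SE 0.105) with PI103, 0.45 (adjusted p 8.97e-04, SE 0.105) with oxozeaenol, 0.40 (adjusted p 0.00216, SE 0.105) with PI103 plus oxozeaenol and 0.26 (adjusted p 0.0325, SE 0.105) with PI103 plus PD0325901, and differed by 0.21 (adjusted p 0.0829, SE 0.105) with PD0325901, which was not called (adjusted p 0.0268 with the batch in the model). The call with PI103 plus PD0325901 was lost in 5 of 8 leave-one-out fits, and that with PI103 in 2.

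RPL34 reached the highest fold change of any member, 0.60 (adjusted p 0.0247, SE 0.219) with oxozeaenol, where it was at 528, 664, 993 and 1081 CPM against 482, 618, 427 and 627 CPM in control. Oxozeaenol replicates 1 and 2 were close to control and replicates 3 and 4 well above it, and the call was lost in 4 of 8 leave-one-out fits. RPL7A rose by 0.31 (adjusted p 0.012, SE 0.102) with oxozeaenol and by 0.26 (adjusted p 0.0349, SE 0.102) with PI103 plus oxozeaenol, and RPL23 by 0.32 (adjusted p 0.0309, SE 0.122) with oxozeaenol. The last 2 of these calls were each lost in 4 of 8 leave-one-out fits. RPL10, which is fitted late into the large subunit and is needed for subunit joining, was at 1263, 1243, 1081 and 1337 CPM in control and 1498, 1454, 1369 and 1401 CPM with PI103, without overlap. It rose by 0.22 (adjusted p 0.0349, SE 0.0849), a call lost in 4 of 8 leave-one-out fits.

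In the combination of PI103 plus PD0325901, 18 of 46 large subunit genes were called lower (39.1%) and 1 higher, and 6 of 30 small subunit genes lower (20%) and 2 higher, beside 32.6% of all genes called lower and 32.2% higher. RPL5, which joins RPL11 and the small ribosomal RNA of the large subunit in a particle that binds MDM2, was at 1972, 2471, 1888 and 2464 CPM in control and 1255, 1376, 1706 and 1836 CPM in that combination. It did not overlap control there. RPL5 fell by 0.51 (adjusted p 0.00439, SE 0.150), and by 0.38 (adjusted p 0.0342, SE 0.150) with PD0325901. RPL11, its partner, was at 750.3 ± 29.2 CPM (SD, n = 4) in control and passed the test in no treatment, with differences from -0.04 to 0.21. With the batch in the model RPL11 was higher with oxozeaenol (adjusted p 0.0205) and RPL5 lower also with PI103 (0.0126). The difference between the partners was not tested. RPL32 was at 1171, 1419, 1008 and 1520.3 CPM in control and 739, 797, 927 and 993 CPM with PI103 plus PD0325901. It fell by 0.57 (adjusted p 0.00149, SE 0.147) there, by 0.43 (adjusted p 0.0155, SE 0.146) with PI103 and by 0.40 (adjusted p 0.0213, SE 0.146) with PD0325901. With the single agents the calls of RPL32 were each lost in 3 of 8 leave-one-out fits, and that of RPL5 with PD0325901 in 4. RPL6 fell by 0.49 (adjusted p 2.91e-05, SE 0.0885), RPL8 by 0.55 (adjusted p 1.61e-04, SE 0.115) and RPL35 by 0.55 (adjusted p 0.00916, SE 0.179) in the same combination.

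RPL13A, known also for a role in silencing inflammatory mRNAs, was at 465, 514, 459 and 574 CPM in control and 509, 504, 489 and 506 CPM with PI103, where the treated range lay inside that of control. It fell by 0.35 (adjusted p 0.00367, SE 0.101) with PI103 plus PD0325901, by 0.25 (adjusted p 0.0339, SE 0.101) with PD0325901 and by 0.25 (adjusted p 0.0402, SE 0.101) with oxozeaenol. The latter 2 calls were each lost in 4 of 8 leave-one-out fits. RPL21 had the largest fall of any member on the log2 scale, from 2.75, 3.87, 2.66 and 4.75 CPM in control to 1.40, 1.95, 2.18 and 1.84 CPM with PI103 plus PD0325901, by 0.93 (adjusted p 4.67e-04, SE 0.214), and by 0.77 (adjusted p 0.00383, SE 0.213) with PI103 and 0.56 (adjusted p 0.0275, SE 0.211) with PI103 plus oxozeaenol. The last of these was lost in 4 of 8 leave-one-out fits. It was also the member with the fewest counts. RPL3, which shapes the peptidyl transferase centre, passed the test in no treatment, with differences from -0.19 to 0.05. RPL41 differed by -0.12 to 0.25 and also passed in none. With the batch in the model RPL3 was lower with PI103 plus PD0325901 (adjusted p 0.0287).

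The stalk of the large subunit, which recruits elongation factors, is built on RPLP0 with dimers of RPLP1 and RPLP2. All 3 genes fell with PI103 plus PD0325901: RPLP0 by 0.26 (adjusted p 0.00773, SE 0.0818), RPLP1 by 0.27 (adjusted p 0.0403, SE 0.113) and RPLP2 by 0.33 (adjusted p 0.00286, SE 0.0912). RPLP0 was at 2354, 2229.6, 2087 and 2387 CPM in control, 1845, 1917, 1976 and 1870.5 CPM with oxozeaenol and 1878, 1806, 1947 and 1947 CPM with PI103 plus PD0325901, and neither treated group overlapped control. RPLP0 also fell with oxozeaenol, by 0.25 (adjusted p 0.012, SE 0.0818), and with PD0325901, by 0.21 (adjusted p 0.0282, SE 0.0818). With PI103 alone it was at -0.02 on the log2 scale. The calls of RPLP1 and of RPLP0 with PD0325901 were each lost in 5 of 8 leave-one-out fits. Of 8 Diamond-Blackfan anaemia genes tested, 0 were called higher in any treatment and 1 was lower with PD0325901 and with PI103 plus PD0325901, which is RPL5. Of 33 members whose proteins are shared with bacteria and archaea, 13 were lower (39.4%, beside 32.6% of all genes) and 0 higher with PI103 plus PD0325901. Their median log2 change there was -0.24, against -0.23 for all members. With PI103, PD0325901, oxozeaenol and PI103 plus oxozeaenol, 2, 7, 4 and 2 of the 33 were lower and 1, 0, 1 and 0 higher. Of all genes tested, 25.2%, 29.9%, 26.1% and 27.9% were lower in these treatments and 26.2%, 28.7%, 25.7% and 27.7% higher. With PI103 plus PD0325901 the shares were 32.6% and 32.2%. These shares are the background for the 8 Diamond-Blackfan anaemia genes as well.

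Some calls of large and small subunit members depended on how libraries were scaled. With upper-quartile scaling, RPL4, RPL13A, RPL35, RPLP0, RPLP1 and RPLP2 were no longer called with PI103 plus PD0325901, RPL5, RPL8, RPL13A, RPL32, RPLP0 and RPS2 no longer with PD0325901, RPSA and RPL13A no longer with oxozeaenol and RPS23 and RPL6 no longer with PI103. The calls of RPS25, RPS27 and RPSA with PI103 and with both combinations held with upper-quartile scaling, DESeq2's size factors, library totals, TMM without the members and scaling by other short transcripts.

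Each combination was also set against its own agents, and the agents against each other. For PI103 plus oxozeaenol, 0 of 76 members were called against PI103 (9.39% of all genes higher, 8.92% lower, 18.3% in all) and 0 against oxozeaenol (7.59% of all genes higher, 7.28% lower, 14.9% in all). At an unadjusted p under 0.05 the counts were 0 and 3. DESeq2's Wald test called 1 against oxozeaenol. PI103 plus PD0325901 was lower than PI103 alone in 7 members and higher in 0 (18.8% of all genes higher, 19.9% lower, 38.7% in all). The count was 3 without PI103 replicate 1, 2 without PI103 replicate 2, 2 without replicate 2 of the combination and 2 with upper-quartile scaling. RPL4 had the largest of these differences, -0.43 (adjusted p 8.80e-04, SE 0.0950), from 2289.9, 2204, 2109.6 and 2147 CPM with PI103 to 1613, 1468, 1766 and 1659 CPM in the combination, without overlap. RPL3, RPL6, RPL8, RPL13A, RPLP0 and RPS2 were the others. Against PD0325901 alone the combination differed in 1 member, RPSA, at -0.43 (adjusted p 0.00748, SE 0.109) (8.06% of all genes higher, 10% lower, 18.1% in all), and in 7 without PD0325901 replicate 2. The PI103 concentration in both combinations was 50% of that in the PI103 group, so these comparisons mix the added agent with the lower concentration of the first.

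Between the combinations, all 76 members were on the lower side with PD0325901 as the partner rather than oxozeaenol, with a median of -0.22, and 9 were called (14.3% of all genes higher, 15.6% lower, 29.9% in all). The count was 1 and 2 without replicates 2 and 1 of the combination with PD0325901, and 2, 4 and 3 without replicates 1, 2 and 3 of that with oxozeaenol. RPL6 had the smallest p of the 9, at -0.34 (adjusted p 0.00538, SE 0.0884). When libraries were scaled by other short transcripts the median was -0.13 and 0 were called, against 16.4% of all genes. Between single agents, PI103 against oxozeaenol gave 2 higher and 21 lower (20.6% of all genes higher, 22.5% lower, 43.1% in all). The largest difference was RPL21 at -0.75 (adjusted p 0.00611, SE 0.214), followed by RPL27 at -0.74 (adjusted p 0.0144, SE 0.235) and RPS10 at -0.71 (adjusted p 0.00753, SE 0.206). The median of -0.23 turned to 0.08 under scaling by other short transcripts, with 11 higher and 3 lower (41.2% of all genes), and the count was 4 without oxozeaenol replicate 4, 7 without oxozeaenol replicate 3, 6, 7 and 7 without PI103 replicates 1, 2 and 3, and 42 without oxozeaenol replicate 1. PI103 against PD0325901 gave 4 higher and 0 lower (21.7% of all genes higher, 22.9% lower, 44.5% in all), RPL4, RPL10, RPL13A and RPL23A, and 1 without PD0325901 replicate 1. Oxozeaenol against PD0325901 gave 5 higher and 0 lower (13.4% of all genes higher, 15.1% lower, 28.5% in all), led by RPL36A at 0.33 (adjusted p 0.00691, SE 0.0874), and each of the 8 fits that left out 1 library moved that count by over 1.5 times, from 0 without PD0325901 replicate 2 to 30 without oxozeaenol replicate 1. With the batch in the model these counts were 41, 7 and 37 for the 3 pairs of single agents in the order given (48.3%, 49.4% and 36.3% of all genes), 11 for PI103 plus PD0325901 against PI103 (44%), 3 for PI103 plus oxozeaenol against oxozeaenol (22.2%) and 21 between the combinations (36.4%).

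The members moved together from library to library within groups. The correlation of 2 members' deviations from their group means over the 24 libraries had a median of 0.846 across all pairs, and 97.2% of pairs were positive. Members share each library and its scaling, so these are not independent points. In control replicate 3, 1 of 76 members was above its group mean, in PD0325901 replicate 2, 0 were, and in oxozeaenol replicate 3 all 76 were. The SD of the deviations had a median of 0.212 among the members and 0.176 over all genes tested. RPS29, RPS21, RPS15A and RPL27 varied most, with SDs of 0.407, 0.378, 0.374 and 0.368. RPLP0, RPL10, RPL3, RPL6 and RPS2 varied least, with SDs of 0.0861 to 0.107. RPL3 did not follow the rest, with a correlation of -0.17 with the members' mean.

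Other short mRNAs moved with them. For the 1075 tested genes outside the members with a transcript under 1000 bases, the median deviation per library was set against the members' mean deviation. These correlated at Pearson r = 0.978 and Spearman rho = 0.939 over 24 libraries (2-sided permutation p = 1.0e-05 for each, the smallest that 100000 permutations can give, adjusted over 4 length classes 1.3e-05 and 2.0e-05). The permutations shuffled all 24 libraries freely, although deviations are centred within 6 groups and libraries share batches. Both sides of each correlation also share the library and its scaling, so every permutation p here is a rough description. Without the 2 libraries farthest from the median, oxozeaenol replicates 1 and 4, r was 0.984. For genes of 1000 to 2000 bases r was 0.787 and for those of 2000 to 4000 bases -0.69. For the short genes, within batches 1, 2 and 3, it was 0.984, 0.992 and 0.990 (n = 6 libraries each), and within batch 4, where the libraries span little, -0.12. For the 4135 genes with transcripts of 4000 bases or more, r was -0.83 (permutation p = 1.0e-05) and rho was -0.79, with -0.82 without the 2 farthest libraries and -0.94, -0.93, -0.87 and -0.66 in batches 1 to 4. The members' transcripts had a median length of 818 bases against 2815 over tested genes with a length. Against control, the short genes outside the members had a median log2 change of 0.19 with oxozeaenol, beside 0.15 for the members. With PI103, PD0325901, PI103 plus oxozeaenol, and PI103 plus PD0325901 they were at -0.06, -0.03, 0.04 and -0.05. The part of transcript length or library quality in the members' changes was not tested.

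**Figure D4:**
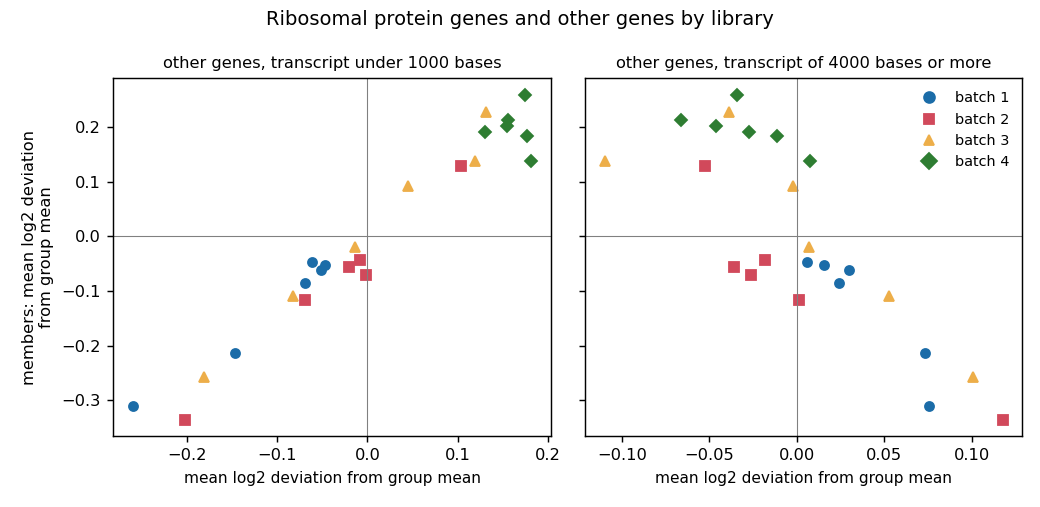
Mean log2 deviation from the group mean of the 76 ribosomal protein genes (y axis) against the median deviation of other genes (x axis, where the label says mean), 1 point per library, for genes with transcripts under 1000 bases (left) and of 4000 bases or more (right). Symbols mark the batch. Points rise along a line on the left (r = 0.978) and fall on the right (r = -0.83), and the 6 libraries of batch 4 lie between 0.14 and 0.26 on the y axis.

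On a scale set by those short genes, an alternative added after the data were seen, the members' median log2 change against control was -0.09 for PI103, -0.16 for PD0325901, -0.10 for oxozeaenol, -0.06 with PI103 plus oxozeaenol and -0.19 with PI103 plus PD0325901. The oxozeaenol median thus changed sign, while the median of all genes tested moved from 0.02 to -0.22 there. Members called were 4 higher and 10 lower, 1 and 15, 1 and 19, 3 and 6, and 3 and 25 in the same order, against 38.2%, 47.7%, 46.3%, 43.2% and 54.3% of all genes. RPS25 was called higher in all 5 treatments on that scale, at 0.43, 0.25, 0.30, 0.49 and 0.41, including PD0325901 (adjusted p 0.0398), where it was not called with TMM scaling. RPS27 and RPL22 lost their calls with oxozeaenol, at 0.14 and 0.18, as did RPL34 (0.34), RPL23 (0.06) and RPL7A (0.06). RPL10 lost its call with PI103, at 0.28. RPSA was lower in the 4 treatments given before, at -0.36, -0.51, -0.42 and -0.62.

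On a scale set by the members themselves, also added after the data were seen, a change is relative to the other ribosomal protein genes. RPS25, RPS27 and RPL22 were higher in all 5 treatments on that scale, and they were the members for which that held. RPS25 was higher by 0.51, 0.42, 0.43, 0.55 and 0.60, RPS27 by 0.51, 0.39, 0.27, 0.53 and 0.62, and RPL22 by 0.41, 0.37, 0.31, 0.38 and 0.47 with PI103, PD0325901, oxozeaenol and the combinations with oxozeaenol and with PD0325901. With oxozeaenol the adjusted p was 0.0444 for RPS27 and 0.0487 for RPL22, and each of these calls was lost in 6 of 8 leave-one-out fits. RPL22 also lost its call with PD0325901 (adjusted p 0.0166) in 3 fits and with PI103 plus oxozeaenol (adjusted p 0.0155) in 2. The 5 calls of RPS25, with adjusted p up to 0.00294, held in all of them, as did the other 4 of RPS27. RPSA was lower with oxozeaenol (-0.38) and in both combinations (-0.37 and -0.43), and RPL5 with PD0325901 (-0.23) and in both combinations (-0.25 and -0.29). The calls of RPL5 with PD0325901 and with PI103 plus oxozeaenol were each lost in 7 of 8 leave-one-out fits, and those of RPSA with oxozeaenol and with PI103 plus oxozeaenol in 3 each. With PI103, RPSA was at -0.28 and was not called. RPL21, the member with the fewest counts, was lower with PI103 (-0.60) and in both combinations (-0.54 and -0.68), calls that held in all leave-one-out fits. RPL32 was lower with PI103 (-0.28), PD0325901 (-0.24) and PI103 plus PD0325901 (-0.33), the first 2 lost in 4 and 5 of 8 fits. RPL34 was higher with oxozeaenol (0.47) and in both combinations (0.36 and 0.41), lost in 1, 5 and 0 fits. In all, 19 members were called in at least 1 treatment on their own scale, against 70.2% of all genes: 9, 5, 8, 7 and 12 in the order of treatments given, against 34.6%, 42.4%, 33.8%, 36.9% and 51.3% of all genes. With the batch in the model the counts were 19, 12, 23, 13 and 26, against 45.1%, 50.9%, 45.5%, 46.7% and 59.4% of all genes. Because the members set this scale, their common shift is taken out of them and carried into the other genes. These counts and shares therefore do not compare the members with other genes.

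Members with and without a TOP tract at an annotated start were set side by side. With PI103, the 46 members with a tract had a median log2 change of -0.16 and the 16 without one -0.14. With PI103 plus PD0325901 the medians were -0.22 and -0.25, with PD0325901 -0.15 and -0.11, with oxozeaenol 0.17 and 0.13, and with PI103 plus oxozeaenol -0.02 and 0.01. Of the 46 with a tract, 4, 0, 5, 4 and 3 were called higher and 3, 6, 3, 2 and 15 lower in the order PI103, PD0325901, oxozeaenol, PI103 plus oxozeaenol, PI103 plus PD0325901. Of the 16 without one, 0 were higher in any treatment and 2, 2, 0, 0 and 4 lower. Over all genes tested, 26.2%, 28.7%, 25.7%, 27.7% and 32.2% were called higher in that order. The shares of all genes called lower were 25.2%, 29.9%, 26.1%, 27.9% and 32.6%. Of the 16, 7 had a tract within 5 bases of an annotated start. In others, such as RPL15, RPL9 and RPL27, a run of pyrimidines lay further into the window. The classes thus sort annotated starts, and their medians do not compare mRNAs with and without a TOP tract. The difference between the classes was not tested.

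Genes that share the TOP class or the making of ribosomes were looked at by list. Over all genes tested, 25.2%, 29.9%, 26.1%, 27.9% and 32.6% were called lower and 26.2%, 28.7%, 25.7%, 27.7% and 32.2% higher with PI103, PD0325901, oxozeaenol, PI103 plus oxozeaenol and PI103 plus PD0325901, which is the background of each list. The non-coding hosts of small nucleolar RNAs, several of which are known as TOP transcripts that are degraded when they are translated, had the lowest median of the lists looked at in every treatment. Of 8 hosts matched in the RefSeq table, 3 (37.5%) had the tract at an annotated start and 4 within 5 bases of it, and in GAS5, SNHG1, SNHG3 and EPB41L4A-AS1 none was found in the window. Of 8 tested, 6 were lower after PI103, 7 after PD0325901, 6 with oxozeaenol, 6 with PI103 plus oxozeaenol and 7 with PI103 plus PD0325901, and 0 were higher in any. Their median log2 changes were -1.52, -1.44, -0.91, -1.18 and -1.60. GAS5 fell from 542, 929.9, 460.2 and 965 CPM in control to 207, 169, 181 and 275 CPM with PI103, a change of -1.80 (adjusted p 3.36e-06, SE 0.257). SNHG8 fell by 1.75 (adjusted p 3.80e-09, SE 0.162) with PI103 and by 1.90 (adjusted p 4.05e-10, SE 0.163) with PI103 plus PD0325901. EPB41L4A-AS1 fell by 1.44 (adjusted p 2.24e-07, SE 0.177) with PD0325901. It is an antisense RNA, and reads from it and its partner cannot be told apart where strand was not used. SNHG6 passed in no treatment. With oxozeaenol GAS5 was at -1.08 and SNHG8 at -1.15, and with PI103 plus oxozeaenol at -1.44 and -1.57. All treatments share their control libraries.

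Among ribosomal proteins and paralogs outside the rule, 8 of 11 were tested. RPL22L1, the paralog of RPL22, fell from 77.3, 130.1, 81.8 and 116 CPM in control to 31.2, 32.1, 34.1 and 51.3 CPM with PI103, 40.5, 22.9, 46.4 and 53.5 CPM with PD0325901 and 26.8, 29.8, 40.9 and 48.5 CPM with PI103 plus PD0325901. No library of these treatments overlapped control. Its changes were -1.45 (adjusted p 1.16e-04, SE 0.272), -1.31 (adjusted p 2.42e-04, SE 0.271) and -1.47 (adjusted p 5.68e-05, SE 0.272), and it fell by 0.91 (adjusted p 0.00604, SE 0.268) with PI103 plus oxozeaenol. RPL22 itself was higher in the same PI103 groups. With oxozeaenol RPL22L1 was at -0.44 (adjusted p 0.175, SE 0.266). RPS27L, the paralog of RPS27 and a known target of p53, was at 257, 335, 482 and 565 CPM with oxozeaenol against 219, 294, 223 and 258 CPM in control, with replicates 1 and 2 nearest to control and replicate 1 inside its range. It rose by 0.72 (adjusted p 0.00712, SE 0.215) and passed in no other treatment. RPL36AL rose by 0.49 (adjusted p 5.41e-05, SE 0.0884) with oxozeaenol, and RPL7L1 fell in all 5 treatments, by 0.66 (adjusted p 9.16e-08, SE 0.0808) with PI103 plus PD0325901. GNB2L1, now called RACK1, a signalling scaffold of the small subunit, fell by 0.52 (adjusted p 1.10e-05, SE 0.0877) in that combination.

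The list of other TOP mRNAs holds 22 genes, among them elongation and initiation factors, importins and chaperones. Of these, 4 were lower after PI103 (18.2%, beside 25.2% of all genes), 10 after PD0325901 (45.5%, beside 29.9%), 7 with oxozeaenol (31.8%, beside 26.1%), 7 with PI103 plus oxozeaenol (31.8%, beside 27.9%) and 13 with PI103 plus PD0325901 (59.1%, beside 32.6%), and 4, 1, 1, 1 and 1 were higher. Their medians were -0.09, -0.21, -0.17, -0.13 and -0.27. EEF2, which moves the ribosome along the mRNA, fell by 0.59 (adjusted p 3.27e-05, SE 0.104) with oxozeaenol and by 0.44 (adjusted p 6.73e-04, SE 0.103) with PD0325901. NPM1 fell by 1.00 (adjusted p 3.33e-07, SE 0.133) and IPO7, an importin that carries ribosomal proteins into the nucleus, by 1.00 (adjusted p 3.65e-08, SE 0.116) with PI103 plus PD0325901. EIF4B rose by 0.38 (adjusted p 0.00168, SE 0.0966) with PI103. VIM, a filament protein with no tract found in its start window, was at 6.37 ± 0.479 CPM (SD, n = 4) in control and rose by 1.36 (adjusted p 1.37e-11, SE 0.0938) with PI103.

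Of 16 genes that control TOP translation under mTOR, 7 were lower and 3 higher with PI103, 7 lower and 4 higher with PD0325901, 3 lower and 3 higher with oxozeaenol, and 9 lower and 3 higher in each combination. EIF4EBP1, which encodes the translation repressor 4E-BP1, fell from 189 ± 38.1 CPM in control to 29.1 ± 5.01 CPM with PI103 (SD, n = 4), a change of -2.70 (adjusted p 1.23e-09, SE 0.229), and fell by 3.02 (adjusted p 8.67e-11, SE 0.232) with PI103 plus PD0325901. Its relative EIF4EBP2 rose by 0.59 (adjusted p 3.45e-06, SE 0.0868) with PI103 and by 0.72 (adjusted p 1.22e-07, SE 0.0869) with PI103 plus oxozeaenol. LARP4 fell by 0.95 (adjusted p 3.22e-10, SE 0.0839) with PI103 plus PD0325901, and LARP1, which holds TOP mRNAs out of translation, fell by 0.24 (adjusted p 0.0434, SE 0.0998) with PI103. TSC1 and TSC2, which restrain mTOR complex 1, rose in all 5 treatments, by 0.76 (adjusted p 5.54e-06, SE 0.116) and 0.52 (adjusted p 2.67e-05, SE 0.0887) with PI103. RPS6KB1, which encodes an S6 kinase, fell in all 5, by 0.69 (adjusted p 3.13e-07, SE 0.0892) with PD0325901. A further list was drawn up for ribosomal protein chaperones and for loading of the RPL5 and RPL11 particle, and not every gene in it is a chaperone. Of its 9 genes, 5, 7, 4, 6 and 7 were lower, and 1 was higher, with PI103. The order is PI103, PD0325901, oxozeaenol, PI103 plus oxozeaenol, PI103 plus PD0325901. With PI103 plus PD0325901, RPF2, which loads the RPL5 and RPL11 particle, fell by 1.58 (adjusted p 9.56e-09, SE 0.163). GRWD1, the chaperone of RPL3, fell by 1.24 (adjusted p 5.06e-09, SE 0.128), and LTV1 fell by 1.23 (adjusted p 5.17e-10, SE 0.111).

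**Figure D5:**
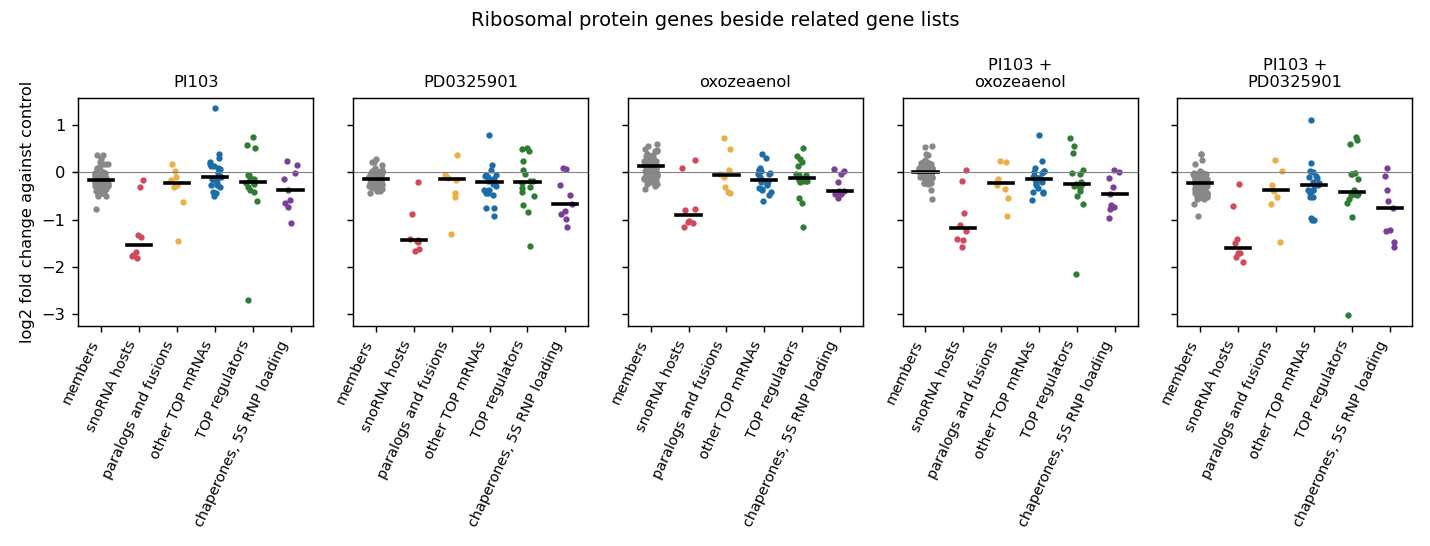
Log2 fold change against control (y axis) of single genes in the members and in 5 related lists (x axis), 1 panel per treatment. Black lines are medians. The snoRNA hosts have medians from -1.60 to -0.91, and the members' medians lie between -0.23 and 0.15, with the oxozeaenol value turning to -0.10 when libraries are scaled by other short transcripts.

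Among 8953 genes outside the members with a mean of at least 10 CPM, those whose log2 CPM over the 24 libraries was most like the members' mean were PPIA (Pearson r = 0.973), EEF1B2 (0.960), UXT (0.959), TBCA (0.956) and C19orf70 (0.952). PPIA encodes cyclophilin A, EEF1B2 a subunit of elongation factor 1, and TBCA a tubulin folding factor. The likeness covers differences between libraries as well as between groups.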

How the data were processed

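Counts per gene were deposited by the authors as one table of whole-number read counts for the 24 libraries. Per the labels' protocols, libraries were made with a stranded mRNA kit from 0.8 µg total RNA, and the build was GRCh38, per the submitters' processing notes. The aligner, counter and annotation are not given in the sources used here. The 5 tallies of reads without a gene entered neither library sizes nor tests: reads in no feature were 4.24% to 8.57%, not unique 4.64% to 6.06% and ambiguous 1.57% to 2.01% of all tallied reads per library. Groups were taken from sample titles, because the treatment field numbers the compound names upward from sample to sample.

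Counts were tested with edgeR 4.0.16 in R 4.3.3 (quasi-likelihood F test, 2-sided, robust; TMM scaling; default filter on low counts by group), with 1 coefficient per group over all 24 libraries and Benjamini-Hochberg adjustment over 13947 genes. The biological coefficient of variation was 0.131. CPM are counts per M of effective library size, and their log2 used a prior count of 2. SE is the absolute log2 change over the root of F. The script was tested on simulated data. Correlations were computed in Python 3.11. Transcript lengths, overlaps and pseudogenes came from GENCODE release 29 (GRCh38), and start sites from RefSeq (GRCh38.p14).

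The batch label equals the replicate number and pairs libraries across groups. Over all genes tested, deviations from group means of libraries that share a number correlated at a mean of 0.120 (47 of 60 pairs positive), against -0.04 over 180 pairs that do not, and over the members at 0.383 against -0.11. The main model leaves this pairing out, and the batch enters only as an alternative. No source gives the authors' model. More members were called with the batch in the model, in each treatment against control and in the test of any difference. Alternatives were other scalings, filters, DESeq2 1.42.0, a minimum 1.2-fold change, fits on 2 groups only and leaving out each library. The self scaling and the short-transcript scaling were added after the data were seen.

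The members and lists were chosen with earlier results of these data known. Named members were the 3 with the largest rise and the 3 with the largest fall in each treatment, among called members with the same sign in all 4 batches, with 16 members taken whatever their values, and for each list the 2 genes with the smallest adjusted p per treatment. GAS5, SNHG6, RPS27L, TSC1, TSC2, LARP1 and any further member named in the text were chosen after their values were seen.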

Additional observations from a re-analysis of the deposited data

Results flagged for a closer look

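Within each group of 4 libraries, the highest or lowest library was looked at for the share held by the members and for the CPM of 23 named members. Of 144 such groups 10 had a library that stood apart by Dixon's 95% criterion, the gap to the nearest library over the range, and chance gives about 1 in 20. In 9 it was the highest library.

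With PI103, replicate 4 was high for RPS6 at 3114 CPM (others 2207 to 2281), for RPS27A at 1842 CPM (others 1175 to 1279) and for RPL34 at 736 CPM (others 479 to 509). With PI103 plus oxozeaenol, replicate 4 was high for RPS27A at 2336 CPM (others up to 1577), for RPS27 at 1593 CPM (others 1381 to 1404), for RPS23 at 1126 CPM (others 1047 to 1049), for RPL11 at 913 CPM (others 799 to 814) and for RPL22 at 777 CPM (others 663 to 672). These 8 values come from 2 libraries, both of batch 4, which also had the highest share of counts held by the members in 6 of 6 groups.

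RPL3 stood apart in both directions. With PD0325901, replicate 3 was high at 1984 CPM (others 1615 to 1669.9). With oxozeaenol, replicate 4 was low at 1392 CPM (others 1698 to 1716).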

How the results depend on the processing

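Values here are counts of members called, in the order PI103, PD0325901, oxozeaenol, PI103 plus oxozeaenol, PI103 plus PD0325901 against control, and then as named. Shares of all genes under these settings are given only where stated above, so a moved count is not shown to be particular to the members. On the members' own scale, the share of all genes called with PI103 was 26.7% without PI103 replicate 3 and 36.1% without control replicate 3. No called value of a named gene changed sign in the 10 other fits or with 1 library left out; upper-quartile scaling ended 25 calls of named genes, the minimum fold 69 and leaving out 1 library 140, while 2377 of these leave-one-out results kept their side of the threshold. The causes of the changes given here were not tested. Gene counts were 38.1 M or more per library, but RPL21 had only 91 to 362 counts. Whether depth or the spread between libraries limits precision was not tested.

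The replicate block gave 21, 23, 19, 10 and 39 against control, 11 for PI103 plus PD0325901 against PI103, 3 for PI103 plus oxozeaenol against oxozeaenol, 7 for PI103 against PD0325901, 41 for PI103 against oxozeaenol, 37 for oxozeaenol against PD0325901, 21 between the combinations and 62 for any difference, and on the members' own scale 19, 12, 23, 13 and 26. It ended 0 calls of named genes and brought 24 past the threshold.

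Scaling by other short transcripts gave 14 with PI103 and 20 with oxozeaenol, where the median turned to -0.10, 14 for PI103 against oxozeaenol with a median of 0.076, 0 for oxozeaenol against PD0325901 with a median of 0.019, 0 between the combinations, 0 for PI103 plus PD0325901 against PD0325901, 3 against PI103, and 2 for PI103 plus oxozeaenol against oxozeaenol. Upper-quartile scaling moved the median of all genes to 0.15 with PI103 plus PD0325901 and gave 5 with PD0325901, 11 with PI103 plus PD0325901, 2 for the latter against PI103, 3 for oxozeaenol against PD0325901, 2 between the combinations and 17 for any difference. Library totals, where that median was 0.13, gave 7 with PD0325901, 16 with oxozeaenol, 1 for PI103 plus oxozeaenol against oxozeaenol, 2 for PI103 plus PD0325901 against PI103, 3 for oxozeaenol against PD0325901 and 4 between the combinations. TMM without the members gave 7 with PD0325901, 4 for PI103 plus PD0325901 against PI103 and 5 between the combinations.

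No filter on low counts gave 4 for PI103 plus PD0325901 against PI103, 10 for PI103 against oxozeaenol, 2 for oxozeaenol against PD0325901 and 1 between the combinations. A minimum change of 1.2-fold left 1, 0, 2, 2 and 9 against control, 2 for PI103 against oxozeaenol and 0 in each of the other 7 comparisons. DESeq2 gave 15 with PI103, 1 for PI103 plus oxozeaenol against oxozeaenol, 2 for PI103 plus PD0325901 against PD0325901 and 9 for oxozeaenol against PD0325901. Fits on the 2 groups alone gave 16 with PI103, 3 with PD0325901, 15 for PI103 against oxozeaenol, 17 between the combinations and 0 both for oxozeaenol against PD0325901 and for PI103 plus PD0325901 against PD0325901. With all tallied reads as the denominator, the members' share was 7.66% with PI103, 8.32% with PI103 plus oxozeaenol and 7.38% with PI103 plus PD0325901.

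Leaving out each library in turn gave 4 to 24, 2 to 16, 6 to 22, 5 to 9 and 18 to 34 against control, 0 to 0 and 0 to 1 for PI103 plus oxozeaenol against PI103 and against oxozeaenol, 2 to 7 and 1 to 7 for PI103 plus PD0325901 against PI103 and against PD0325901, 1 to 5 for PI103 against PD0325901, 4 to 42 for PI103 against oxozeaenol, 0 to 30 for oxozeaenol against PD0325901, 1 to 10 between the combinations, 21 to 49 for any difference, and 4 to 13, 2 to 6, 2 to 14, 4 to 6 and 9 to 11 on the members' own scale. The lowest and highest counts for PI103 against oxozeaenol were without oxozeaenol replicates 4 and 1, for oxozeaenol against PD0325901 without PD0325901 replicate 2 and oxozeaenol replicate 1, for PI103 plus PD0325901 against PD0325901 the highest was without PD0325901 replicate 2, and for PI103 plus PD0325901 against PI103 the lowest was without PI103 replicate 2. Between the combinations, 1 was left without PI103 plus PD0325901 replicate 2. Medians ran from -0.25 to -0.07, -0.23 to -0.01, 0.06 to 0.22, -0.09 to 0.07 and -0.31 to -0.17 against control, and from 0.09 to 0.19, -0.19 to -0.03, -0.17 to -0.03, -0.20 to -0.00, -0.13 to 0.10, -0.31 to -0.15, 0.15 to 0.34 and -0.31 to -0.16 in the other comparisons in the order just given.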

Other observations

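The mitochondrial ribosome is built from a separate set of proteins that are encoded in the nucleus, and its genes were tested beside those of the cytosolic ribosome. Of 76 tested, 53 were lower with PI103 and 0 higher, 44 lower and 0 higher with PD0325901, 24 lower and 6 higher with oxozeaenol, 49 lower and 2 higher with PI103 plus oxozeaenol, and 65 lower and 0 higher with PI103 plus PD0325901. The shares called lower were 69.7%, 57.9%, 31.6%, 64.5% and 85.5%, beside 25.2%, 29.9%, 26.1%, 27.9% and 32.6% of all genes tested. Their median log2 changes were -0.46, -0.34, -0.09, -0.38 and -0.59, against medians between -0.02 and 0.02 over all genes tested. MRPL2 fell by 1.25 on the log2 scale with PI103 plus PD0325901 (SE 0.121, adjusted p 1.50e-09, edgeR's quasi-likelihood test) and by 0.82 with oxozeaenol (SE 0.120, adjusted p 2.75e-06). MRPS18A fell by 0.78 with PI103 (SE 0.0939, adjusted p 1.52e-07) and by 1.00 with PI103 plus PD0325901 (SE 0.0943, adjusted p 9.61e-10), and MRPS10 by 0.80 with PI103 (SE 0.105, adjusted p 6.18e-07). MRPL3 fell by 0.80 with PD0325901 (SE 0.103, adjusted p 3.13e-07). MRPS6 was the other way, higher by 0.61 with oxozeaenol (SE 0.0990, adjusted p 1.39e-05). The difference between the mitochondrial and the cytosolic genes was not tested.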
